A study of Danio rerio with 7 samples.

Results

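Complex I of the respiratory chain is built from the products of 2 genomes, and the mitochondrial genome contributes 7 of its subunits. Their genes were taken by Ensembl identifier from the table of counts: mt-nd1 (ENSDARG00000063895), mt-nd2 (ENSDARG00000063899), mt-nd3 (ENSDARG00000063914), mt-nd4l (ENSDARG00000063916), mt-nd4 (ENSDARG00000063917), mt-nd5 (ENSDARG00000063921) and mt-nd6 (ENSDARG00000063922). They are 7 of the 25049 genes listed, and all 7 passed the filter on low counts, which left 23716 genes for testing.

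Complex I oxidizes NADH, passes the electrons to ubiquinone and pumps protons across the inner mitochondrial membrane. The mitochondrially encoded subunits lie in its membrane arm. ND2, ND4 and ND5 are the antiporter-like proton channels, whereas ND1, ND3, ND4L and ND6 form the part of the arm next to the quinone site. All of them are transcribed as parts of long polycistronic RNAs that are cut for the most part at the tRNAs. ND6 is the only protein encoded on the light strand, and the other subunits are encoded on the heavy strand. ND4L and ND4 share 1 mRNA in vertebrates, and the ND6 mRNA of human cells is known to carry little or no poly(A) tail.

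The larvae were wild-type zebrafish kept in hypoxia (6% O2) or in normoxia (atmospheric, 20.9% O2) between 81 and 96 hpf (hours after fertilization). Whole larvae were pooled, 30 for each biological replicate, and poly(A) RNA was sequenced from 4 normoxia and 3 hypoxia pools. The counts of a library added up to between 70275114 and 78235938 in normoxia and between 67083058 and 69920400 in hypoxia. Levels are given as CPM, the counts of a gene divided by the library total after scaling by a TMM factor (1.02 to 1.04 in normoxia, 0.951 to 0.977 in hypoxia) and expressed per 1e+06 counts. In RNA from whole larvae, fewer cells of a type and less RNA per cell cannot be told apart.

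Markers of several tissues moved between the groups. At an edgeR adjusted p under 0.05, 6 of 6 skeletal muscle genes (6 of 11 symbols were matched) were higher in hypoxia (2 of 6 with cyclic loess scaling), as were 2 of 2 red cell genes (of 4 symbols), 1 of 1 neuron gene (of 5 symbols) and 3 of 5 eye rows (2 of 3 symbols), while 4 of 4 liver and 4 of 4 ionocyte genes were lower and 2 of 6 heart rows (4 symbols, of which myh6 matched 3 rows) were lower. Summed over its markers, skeletal muscle ran from 46773 to 49388 CPM in normoxia and from 58437 to 62021 CPM in hypoxia, liver from 1537 to 2149 and from 429 to 1094 CPM, and ionocytes from 277 to 345 and from 123 to 217 CPM. By the same rule, 24.6% of all tested genes were higher and 25.1% lower (24.6% higher with cyclic loess scaling). The part of the marker shifts in the values below was not tested.

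Differences of the 7 subunit mRNAs between hypoxia and normoxia were small. At an adjusted p under 0.05, 3 of them were higher in hypoxia, mt-nd6 by 1.28-fold, mt-nd4 by 1.15-fold and mt-nd3 by 1.13-fold. The remaining 4, mt-nd1, mt-nd2, mt-nd4l and mt-nd5, did not pass the test and had fitted log2 fold changes of 0.04 to 0.14. Among all 23716 tested genes 24.6% were higher and 25.1% lower by the same rule, against 3 and 0 of these 7. None of the 7 was also beyond a log2 fold change of 0.6, the further threshold for a differentially expressed gene (DEG), with edgeR or with DESeq2. Of all tested genes, 3.07% passed that threshold upward and 7.45% downward. With edgeR, 4 of the 7 had an unadjusted p under 0.05, beside 13337 of all 23716 tested genes. The median log2 fold change was 0.14 over the 7 genes and -0.00447 over all tested genes.

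The mt-nd6 gene, which encodes the light-strand subunit, had the largest difference of the 7. Normoxia replicates 1 to 4 held 385, 456, 417 and 494 CPM of it, and hypoxia replicates 1 to 3 held 544, 562 and 579 CPM. The hypoxia libraries were thus all above the normoxia libraries, a separation in that direction found in 26.3% of tested genes. Group means were 438 ± 47.3 CPM (SD, n = 4) for normoxia and 562 ± 17.2 CPM (SD, n = 3) for hypoxia. The fitted log2 fold change was 0.36 ± 0.07 (SE), with an edgeR adjusted p = 0.0023. An exact two-sided permutation test on mean log2 CPM over the 35 divisions of the libraries into 4 and 3 gave p = 0.0571, where the smallest possible is 0.0286. ND6 overlaps ND5 as annotated by RefSeq on GRCz12tu, whereas the reads had been aligned to GRCz11. The methods do not state whether reads were counted by strand, so reads of mt-nd6 and of RNA antisense to it cannot be told apart.

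The mt-nd3 gene encodes a small subunit beside the quinone site. Its level was 385, 390.1, 370.2 and 390.2 CPM across normoxia replicates 1 to 4, compared with 412, 450.5 and 443 CPM across hypoxia replicates 1 to 3. The groups did not overlap, an upward separation found in 26.3% of tested genes. Of the 7 genes mt-nd3 varied least among the normoxia pools, at 384 ± 9.44 CPM (SD, n = 4), and it averaged 435 ± 20.7 CPM (SD, n = 3) under hypoxia. The fitted log2 fold change was 0.18 ± 0.04 (SE), with an edgeR adjusted p = 0.0066 and an exact permutation p = 0.0286.

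The mt-nd4 gene encodes one of the antiporter-like subunits. It stood at 1657, 1803, 1672 and 2021 CPM among normoxia replicates 1 to 4, and at 2031, 2112 and 2016 CPM among hypoxia replicates 1 to 3. The groups overlapped at their edge, with normoxia replicate 4 above hypoxia replicate 3. Group means were 1788 ± 168 CPM (SD, n = 4) for normoxia and 2053 ± 51.4 CPM (SD, n = 3) for hypoxia. The fitted log2 fold change was 0.20 ± 0.07 (SE), with an edgeR adjusted p = 0.026 and an exact permutation p = 0.0857. Leaving out normoxia replicate 1, 2 or 3 or hypoxia replicate 2 ended the call, at edgeR adjusted p = 0.064, 0.053, 0.08 and 0.09.

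The mt-nd4l gene, which overlaps ND4 in the RefSeq annotation, had 316, 332, 296 and 356 CPM across normoxia replicates 1 to 4, compared with 353, 371 and 351 CPM across hypoxia replicates 1 to 3. Normoxia replicate 4 lay above 2 of the 3 hypoxia libraries. Group means were 325 ± 25.5 CPM (SD, n = 4) and 358 ± 10.8 CPM (SD, n = 3), and the fitted log2 fold change of 0.14 ± 0.06 (SE) did not pass the test (edgeR adjusted p = 0.073).

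For the other 3 genes, normoxia replicate 4 lay above every hypoxia library. The mt-nd1 gene, whose product lines the quinone channel, had 1826, 1892, 1719 and 2039.7 CPM across normoxia replicates 1 to 4, compared with 1817, 2017 and 1927 CPM across hypoxia replicates 1 to 3. Its fitted log2 fold change of 0.04 ± 0.06 (SE; edgeR adjusted p = 0.62) was the smallest of the 7. The antiporter-like subunit gene mt-nd2 had 1411, 1555, 1390.1 and 1715 CPM in the normoxia pools, compared with 1590.0, 1619 and 1607 CPM in the hypoxia pools (log2 fold change 0.08 ± 0.07 SE, edgeR adjusted p = 0.35). The mt-nd5 gene, for the subunit at the far end of the membrane arm, had 1388, 1532, 1412 and 1707 CPM in the normoxia pools, compared with 1595, 1605 and 1588 CPM in the hypoxia pools (log2 fold change 0.08 ± 0.07 SE, edgeR adjusted p = 0.34). In both genes the hypoxia libraries fell between normoxia replicates 2 and 4.

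**Figure D1:**
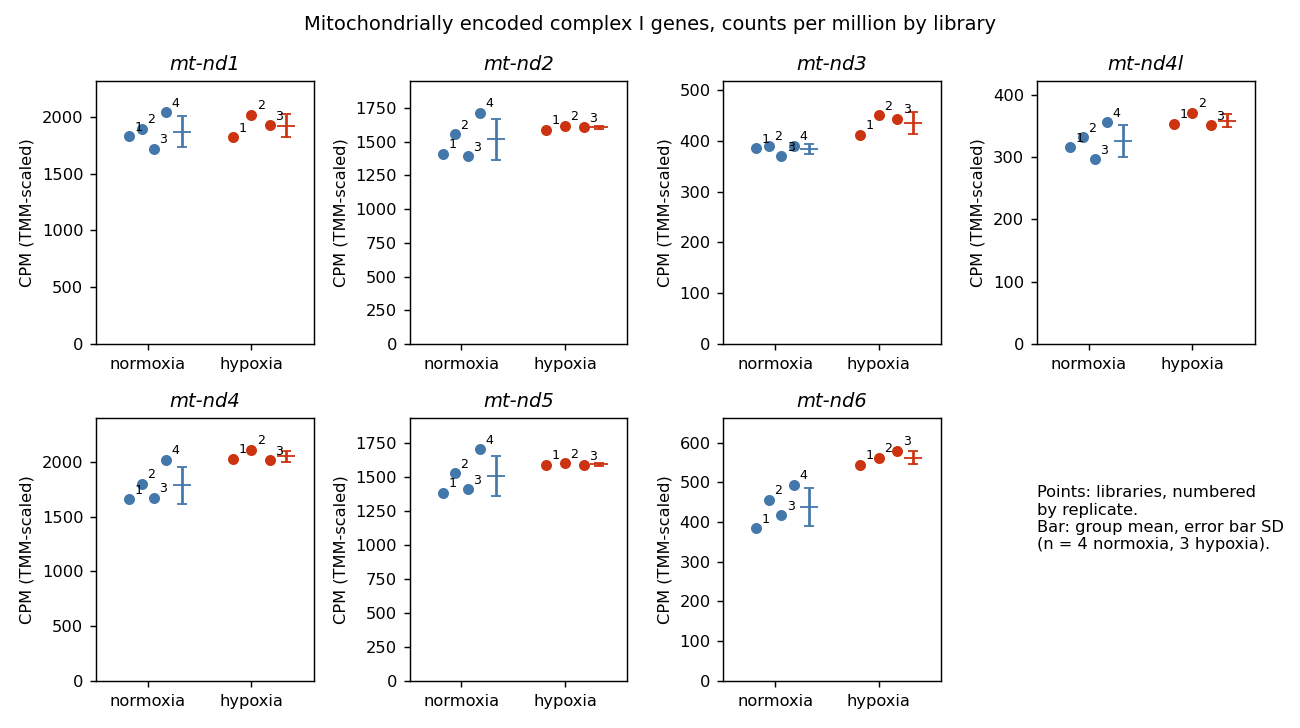
CPM scaled by TMM (vertical axes, starting at 0) of the 7 mitochondrially encoded complex I genes in each library, with replicate numbers beside the points and the group mean ± SD as a bar (n = 4 normoxia, n = 3 hypoxia). In mt-nd3 and mt-nd6, and in no other of the 7, all hypoxia libraries were above all normoxia libraries, as in 26.3% of all tested genes. Normoxia replicate 4 was the highest normoxia library in each panel.

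Normoxia replicate 4 was the highest of the 4 normoxia libraries in 7 of the 7 genes, and it had the largest total count. Its log2 CPM was on average 0.14 above the normoxia mean, from 0.02 in mt-nd3 to 0.18 in the gene farthest from it. The lowest normoxia library was replicate 3 in 4 genes and replicate 1 in 3. The hypoxia pools lay within 0.08 log2 units of their mean, and they were closer together than the normoxia pools in each gene but mt-nd3, whose SD of log2 CPM was 0.0359 in normoxia and 0.0694 in hypoxia. The median SD of log2 CPM over the 7 genes was 0.133 in normoxia and 0.0433 in hypoxia. For the 6 other mitochondrial mRNAs the same medians were 0.115 and 0.0518, so the wider spread in normoxia was not particular to the complex I genes. For the 3466 tested genes with a mean CPM of at least 50, they were 0.0563 and 0.0655. Without normoxia replicate 4, 5 of the 7 genes were called higher in hypoxia, while 23.7% of all tested genes were called higher in that fit. The genes added were mt-nd4l (log2 fold change 0.19, edgeR adjusted p = 0.019) and mt-nd5 (0.14, edgeR adjusted p = 0.042). Normoxia replicate 4 was the highest normoxia library in all 7 genes, so leaving it out raises their fold changes by arithmetic. The added calls are therefore not a separate result. Without normoxia replicate 1, 2 or 3, the number called higher was 2.

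**Figure D2:**
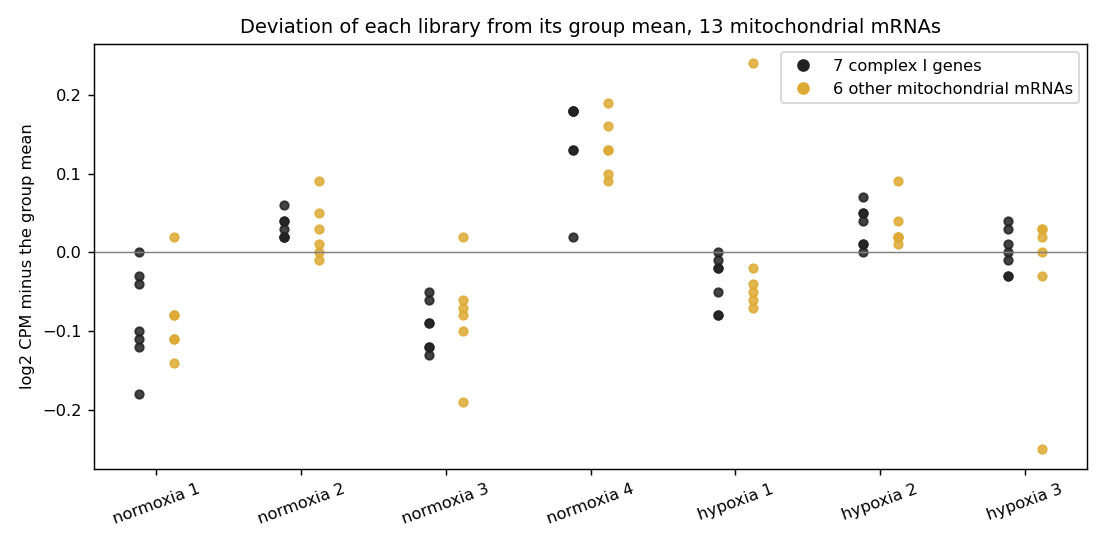
Difference of log2 CPM from the mean of the own group (vertical axis, log2 units) in each library (horizontal axis), with 1 point for each of the 7 complex I genes (black) and of the 6 other mitochondrial mRNAs (yellow). In normoxia replicate 4 all 7 complex I genes were above their group mean, and in the 3 hypoxia libraries they lay within 0.08 of it.

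Directions of change depended on the scaling. With library size only in place of TMM, the median over all tested genes moved to a log2 fold change of -0.10, and those of mt-nd1, mt-nd2 and mt-nd5 became -0.06, -0.01 and -0.02. Relative to the median of all genes, the difference at that scaling was 0.04 in mt-nd1, 0.09 in mt-nd2, 0.08 in mt-nd5, 0.14 in mt-nd4l, 0.18 in mt-nd3, 0.20 in mt-nd4 and 0.36 in mt-nd6, within 0.01 of the value with TMM in each. A scaling factor moves all genes of a library alike, so this near equality follows from the arithmetic and is not a result. With library size only, 1 of the 7 was called higher, mt-nd6, against 16.8% of all tested genes. With cyclic loess normalization and limma, mt-nd6 was called higher (log2 fold change 0.24, adjusted p = 0.011) and mt-nd1 lower (-0.14, adjusted p = 0.048), where 24.6% of tested genes were called higher and 25.4% lower. The increases of mt-nd3 and mt-nd4 lost their calls under both settings. The mt-nd6 gene kept its call in all 16 distinct alternative fits that test for a difference from 0, at log2 fold changes of 0.24 to 0.42.

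**Figure D3:**
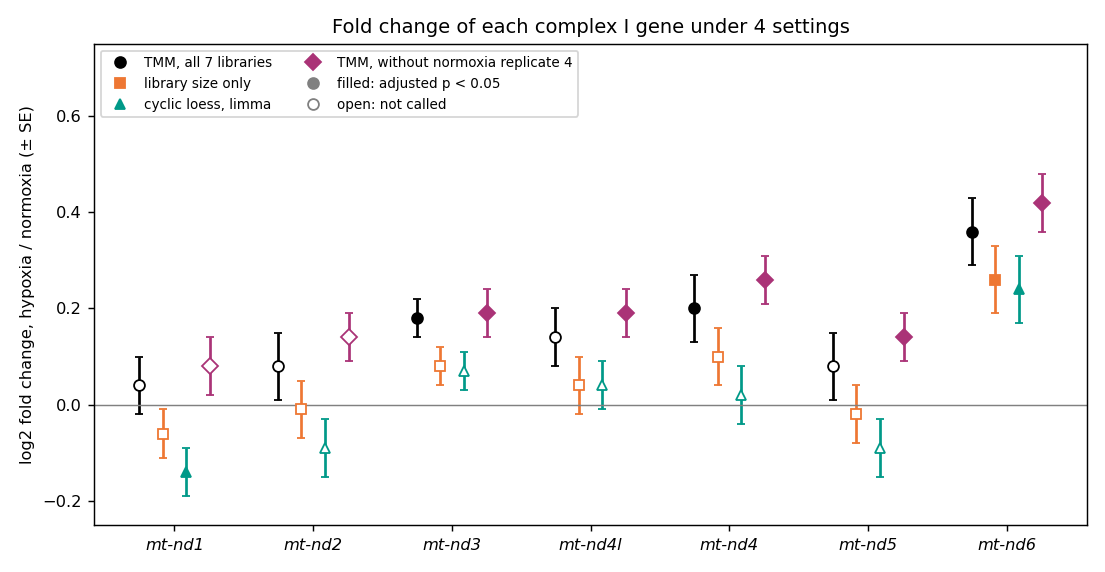
Log2 fold change of hypoxia over normoxia (vertical axis) with its standard error for each of the 7 genes under 4 settings (TMM, library size only, cyclic loess with limma, and TMM without normoxia replicate 4), filled where the adjusted p was under 0.05. The mt-nd6 gene was called in each of the 4 settings, at 0.36, 0.26, 0.24 and 0.42, and mt-nd1 lay on both sides of 0.

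As a share of all counts of a library, without any scaling factor, the 7 genes together held 0.762%, 0.811%, 0.754% and 0.895% across normoxia replicates 1 to 4, compared with 0.815%, 0.831% and 0.817% across hypoxia replicates 1 to 3. The hypoxia libraries lay inside the range of the normoxia libraries. The mean share was 0.806% ± 0.0649 (SD, n = 4) under normoxia and 0.821% ± 0.00879 (SD, n = 3) under hypoxia, a ratio of 1.02, or 1.09 with TMM-scaled library sizes. In counts, the sum was 535600 to 700491 per normoxia library and 557530 to 571488 per hypoxia library.

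The proportions among the 7 genes are ratios within a library and do not depend on a scaling factor. Of the 7, mt-nd6 and mt-nd4 had higher and mt-nd1 and mt-nd2 lower shares in hypoxia without overlap. In CPM, a different measure, 26.3% of all tested genes separated upward. No such share was taken for proportions within a set or for downward separation. The share of mt-nd6 in the counts of the 7 was 5.23%, 5.73%, 5.74% and 5.67% across normoxia replicates 1 to 4, compared with 6.53%, 6.44% and 6.80% across hypoxia replicates 1 to 3. All 3 hypoxia libraries were above the normoxia range, and the mean moved from 5.59% ± 0.242 (SD, n = 4) to 6.59% ± 0.189 (SD, n = 3). The share of mt-nd4 moved from 22.8% ± 0.309 to 24.1% ± 0.343, again without overlap. Against these, the share of mt-nd1 was 23.9% ± 0.617 under normoxia and 22.5% ± 0.667 under hypoxia, and that of mt-nd2 was 19.4% ± 0.276 and 18.8% ± 0.270, with the hypoxia libraries all below the normoxia libraries in both. The groups overlapped for mt-nd3, mt-nd4l and mt-nd5. The shares of the 7 add up to the whole, so a higher share of some lowers that of others, and no test was made on them.

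**Figure D4:**
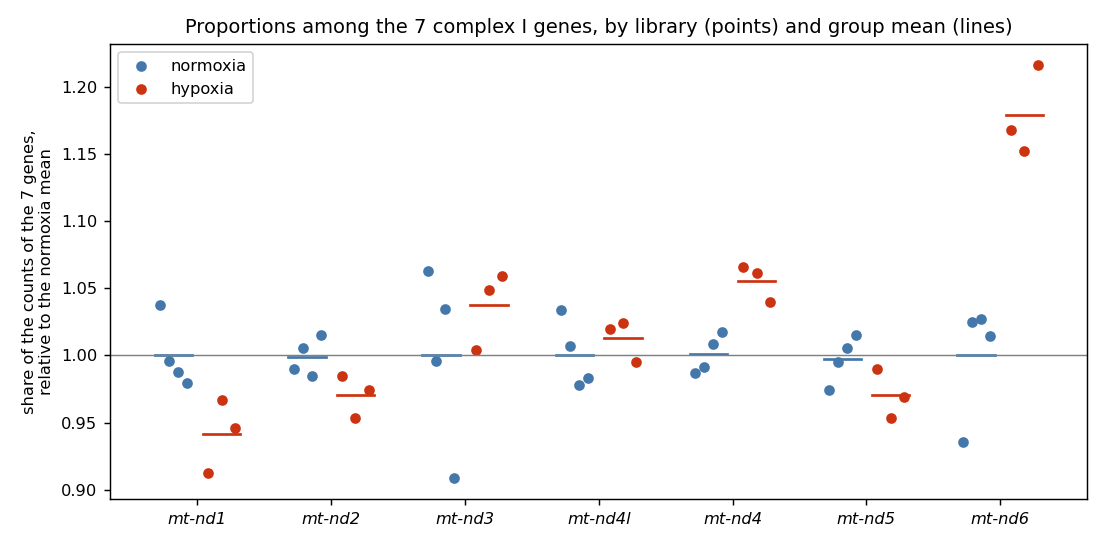
Share of each gene in the summed counts of the 7 complex I genes (vertical axis, divided by the normoxia mean of that gene, axis not starting at 0), with 1 point per library and the group mean as a line. The share of mt-nd6 was 1.18 times and that of mt-nd4 1.05 times the normoxia mean in hypoxia, and that of mt-nd1 was 0.942 times.

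Ratios between pairs of genes were taken in the same way. Counts of mt-nd6 per count of mt-nd5, which overlaps it on the opposite strand, were 0.278, 0.298, 0.296 and 0.290 across normoxia replicates 1 to 4, compared with 0.341, 0.350 and 0.364 across hypoxia replicates 1 to 3, without overlap. Counts of mt-nd4l per count of mt-nd4, its partner on the shared mRNA, averaged 0.182 ± 0.00698 (SD, n = 4) under normoxia and 0.175 ± 0.000940 (SD, n = 3) under hypoxia, with the hypoxia libraries just below the lowest normoxia library. Counts of mt-nd6 per count of mt-cyb, the cytochrome b gene, averaged 0.145 ± 0.00680 and 0.144 ± 0.00349 and overlapped. Those of mt-nd1 per count of mt-nd2 averaged 1.23 ± 0.0444 under normoxia and 1.20 ± 0.0519 under hypoxia and also overlapped. Per count of mt-co1, mt-nd1 averaged 0.210 ± 0.00767 and 0.166 ± 0.00529, with the hypoxia libraries all below. No test was made on these ratios, and how often ratios of other gene pairs separate was not examined.

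The mitochondrial genome also encodes cytochrome b of complex III, 3 subunits of cytochrome c oxidase (complex IV) and 2 of ATP synthase. Of these 6 mRNAs, 4 were called higher in hypoxia, namely mt-co1 (log2 fold change 0.38), mt-cyb (0.36), mt-co3 (0.33) and mt-co2 (0.27), and 1 of the 6 was called with cyclic loess. By the same rules 24.6% of all tested genes were called higher, and 26.3% had every hypoxia CPM above the normoxia CPM. The mt-atp8 gene (0.27, edgeR adjusted p = 0.051) and mt-atp6 (0.04, edgeR adjusted p = 0.65) did not pass the test. Together the 6 held 2.40% ± 0.174 (SD, n = 4) of library counts under normoxia and 2.77% ± 0.0438 (SD, n = 3) under hypoxia, without overlap. Of the counts of all 13 mitochondrial mRNAs, the complex I genes held 25.4%, 25.2%, 24.6% and 25.4% across normoxia replicates 1 to 4, compared with 23.1%, 22.9% and 22.7% across hypoxia replicates 1 to 3. The hypoxia libraries were thus all below the normoxia libraries, by -2.26 percentage points on average, a difference that no scaling factor enters and that was not tested. Normoxia replicate 4 was also the highest normoxia library in 5 of the 6 other mRNAs.

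The nuclear genome encodes the remaining subunits of complex I, among them the NADH-oxidizing and iron-sulfur subunits of the matrix arm. Of 39 symbols listed as such, 37 were matched to the counts and 36 were tested. The list includes ndufa4, whose family is now counted with cytochrome c oxidase. At an adjusted p under 0.05, 6 rose and 5 fell in hypoxia, and 25 were not called. These are 16.7% and 13.9% of the list, below the 24.6% and 25.1% of all tested genes. None was beyond the DEG threshold with edgeR or DESeq2. With edgeR, 12 of the 36 had an unadjusted p under 0.05, beside 13337 of all 23716 tested genes. The median log2 fold change of the list was 0.02, with its called genes between 0.878-fold and 1.20-fold. The 6 higher genes, ndufa1, ndufa2, ndufa5, ndufb1, ndufb2 and ndufb7, encode accessory subunits, and the largest increase was that of ndufb1 (log2 fold change 0.26 ± 0.08 SE, edgeR adjusted p = 0.016). Among the lower genes were ndufa10 (log2 fold change -0.19), ndufb11 (-0.18), ndufab1b (-0.16) and ndufb9 (-0.11), which also encode accessory subunits. With library size only, 0 nuclear subunits were called higher and 11 lower, and without hypoxia replicate 2 the numbers were 0 and 3. Without normoxia replicate 3 they were 3 and 3, and the number lower was 3 without normoxia replicate 4 or hypoxia replicate 1 and 2 without normoxia replicate 2 or hypoxia replicate 3. Of all tested genes, 16.8% were called higher with library size only, where their median log2 fold change was -0.10. With each library left out in turn, 4667 to 5942 of all tested genes were called higher. The shares called lower in these fits are not given here. The row matched to ndufs1 held 7 to 16 counts per library.

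Assembly factors join the subunits into complex I without becoming part of it. Of 15 tested, 5 were lower in hypoxia and 1 was higher, with a median log2 fold change of -0.08. The 33.3% that were lower and 6.67% that were higher stand beside 25.1% and 24.6% of all tested genes. None of the 15 was past the DEG threshold with edgeR or DESeq2. With edgeR, 7 of them had an unadjusted p under 0.05, beside 13337 of all 23716 tested genes. The lower genes were foxred1 (log2 fold change -0.56 ± 0.10 SE, edgeR adjusted p = 8.2e-04), acad9 (-0.49), tmem70 (-0.41), ecsit (-0.40) and ndufaf4 (-0.36), and ndufaf5 was higher (0.17). With library size only, without normoxia replicate 4 and without hypoxia replicate 2, foxred1 passed the DEG threshold, at -0.65, -0.61 and -0.60. It also did so with a replicate block on replicates 1 to 3, at -0.61. In human cells the acad9 and ecsit products belong to a complex that assembles the membrane arm, and the tmem70 product also serves the assembly of ATP synthase. The level of acad9 averaged 25.8 ± 1.36 CPM (SD, n = 4) under normoxia and 18.5 ± 1.88 CPM (SD, n = 3) under hypoxia.

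Of 26 tested genes that copy, transcribe or process mitochondrial DNA and RNA or regulate such genes, 9 were lower in hypoxia and 1 was higher, with a median log2 fold change of -0.13. These are 34.6% and 3.85% of the list, beside 25.1% and 24.6% of all tested genes. None of the 26 was past the DEG threshold with edgeR. In the same fit 13 of them had an unadjusted p under 0.05, beside 13337 of all 23716 tested genes. Among the lower genes were polrmt, for the mitochondrial RNA polymerase (log2 fold change -0.23 ± 0.07 SE, edgeR adjusted p = 0.018), and tefm, for its elongation factor (-0.23, edgeR adjusted p = 0.024). The level of lrpprc, which stabilizes mitochondrial mRNAs in mammals, averaged 110.4 ± 2.14 CPM (SD, n = 4) under normoxia and 88.6 ± 4.43 CPM (SD, n = 3) under hypoxia (log2 fold change -0.32 ± 0.05 SE, edgeR adjusted p = 2.9e-04). The mitochondrial poly(A) polymerase gene mtpap (-0.30), the RNA helicase gene supv3l1 (-0.26) and the single-stranded DNA-binding protein gene ssbp1 (-0.40) were also lower, as were grsf1 (-0.17), fastk (-0.16) and gabpa (-0.20). The higher gene was nrf1 (0.19, edgeR adjusted p = 0.0075), which encodes a transcription factor. The tfam gene, for the factor that packages mitochondrial DNA and starts its transcription, did not pass the test (-0.10, edgeR adjusted p = 0.14). Without hypoxia replicate 3, 5 genes of this list were called lower, and with library size only 15 were. Scaling by library size alone put the median tested gene at -0.10. In that fit 12067 tested genes were called in either direction, 3995 of them higher. Without hypoxia replicate 3, 9508 were called, 4667 of them higher. How much of the 15 came from the shifted median was not tested.

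**Figure D5:**
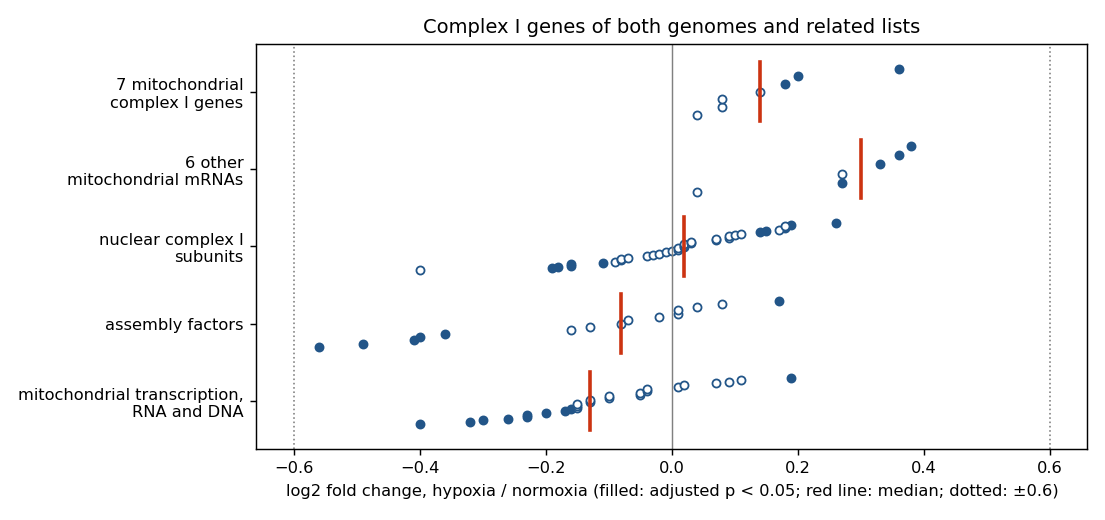
Log2 fold change of hypoxia over normoxia (horizontal axis) for each tested gene of 5 lists, filled where the adjusted p was under 0.05, with the median of the list in red and the DEG thresholds dotted. Medians were 0.14 for the 7 mitochondrial complex I genes, 0.30 for the 6 other mitochondrial mRNAs, 0.02 for nuclear subunits, -0.08 for assembly factors and -0.13 for genes of mitochondrial transcription, RNA and DNA, and no gene lay beyond 0.6.

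The genes whose levels followed the 7 most closely were sought among 3459 other genes with a mean CPM of at least 50, by Pearson's r over the 7 libraries with the mean log2 CPM of the 7 genes. The 5 highest were brwd1 (r = 0.989), trim33 (0.978), prelid3b (0.973), fbxo11a (0.956) and the unnamed ENSDARG00000080337 (0.955). No symbol was matched to the last, and what it encodes was not determined. It had 7316, 8579, 7229.6 and 9464 CPM across normoxia replicates 1 to 4, and 10678, 11950.2 and 11750.0 CPM across hypoxia replicates 1 to 3. Its log2 fold change was 0.49 ± 0.09 (SE), with an edgeR adjusted p = 0.0011. The brwd1 gene had 45.5, 48.8, 45.4 and 54.1 CPM across normoxia replicates 1 to 4, compared with 54.7, 56.3 and 55.6 CPM across hypoxia replicates 1 to 3, so that normoxia replicate 4 lay next to the hypoxia libraries. Of the other mitochondrial mRNAs, mt-co1 (r = 0.930), mt-co3 (0.923) and mt-cyb (0.921) held places 13, 19 and 21, mt-co2 (0.858) held place 138, and mt-atp6 (0.800) and mt-atp8 (0.602) held places 470 and 1559. The 7 points share the groups and the scaling factors, and the values are a description.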

How the data were processed

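Per the labels and the paper's methods, the authors deposited raw counts per gene, made with Trimmomatic 0.39 (trimming), FastQC 0.12.1 (quality), STAR 2.7.10 (alignment to GRCz11, annotation of Ensembl release 113) and featureCounts 2.0.7 (counting), with no normalization. The strand setting and the treatment of reads that map to several places, such as nuclear copies of mitochondrial DNA, are not given in the sources used here. Poly(A) selection makes the measured level depend on tail length.

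In R 4.3.3, all genes were fitted with edgeR 4.0.16 (filterByExpr, TMM, glmQLFit, glmQLFTest, Benjamini-Hochberg adjustment over all tested genes), with the thresholds of the paper (adjusted p under 0.05, absolute log2 fold change over 0.6). Standard errors are the absolute log2 fold change over the square root of F. Functions were tested on simulated counts. Alternatives were DESeq2 1.42.0, other scalings including cyclic loess with limma 3.58.1, other filters and thresholds, a replicate block, and leaving out each library. At the library totals, 3 counts equal 0.0383 to 0.0447 CPM, for counting error only. Replicate pairs differed by 7.04 to 20.9 times sampling noise (chi-square per degree of freedom), and each library counts as 1 replicate.

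Symbols come from a table of Ensembl identifiers, matched without regard to case and written in lower case, and were found for 23250 of 25049 genes. Neighbours come from the RefSeq annotation of GRCz12tu. Genes named are the 7, list genes past the adjusted p with a few others beside them, and the 5 genes most like the 7. Lists and genes were chosen with earlier results of these data known. The symbols mt-rnr1 and mt-rnr2 were not matched, and levels per gene length were not computed, so levels are not compared between genes. A gene of the lists is not reported here by name.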

Additional observations from a re-analysis of the deposited data

Results flagged for a closer look

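The share of mt-nd6 in the counts of the 7 complex I genes was 5.23% in normoxia replicate 1 and 5.67% to 5.74% in the other 3 normoxia libraries. The gap between replicate 1 and the nearest library was 0.866 of the whole range, above Dixon's critical value for 4 samples. It was the only one of 15 normoxia values examined in this way (the CPM and the share of each gene, and the summed share) to pass, and chance gives 0.750. Hypoxia, with 3 libraries, was not examined.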

How the results depend on the processing

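Of the 7 genes, 3 were called higher in hypoxia. The number was 1 with library size only, 1 with cyclic loess (which also called 1 lower), and 2 to 5 with each library left out in turn. No gene passed both thresholds under any alternative, including the threshold inside the test and a log2 threshold of 1. With library size only, log2 fold changes were -0.06 (mt-nd1), -0.01 (mt-nd2) and -0.02 (mt-nd5), reversed, and 0.08 (mt-nd3) and 0.10 (mt-nd4), no longer called. That scaling moved the median of all genes to -0.10, and each gene's difference from the median stayed within 0.01. A factor per library moves all genes alike, so this had to be so. With cyclic loess the log2 fold changes of mt-nd1, mt-nd2 and mt-nd5 were -0.14, -0.09 and -0.09, reversed. Those of mt-nd3 and mt-nd4 were then 0.07 and 0.02, no longer called. The cause of the latter was not tested. With each library left out in turn they ran from 0.000266 to 0.08 (mt-nd1), 0.04 to 0.14 (mt-nd2), 0.15 to 0.22 (mt-nd3), 0.10 to 0.19 (mt-nd4l), 0.16 to 0.26 (mt-nd4), 0.04 to 0.14 (mt-nd5) and 0.30 to 0.42 (mt-nd6). DESeq2, its size factors, upper-quartile factors, scaling without the 7 genes and both other filters left each call of the 7 as it was. The replicate numbers do not pair the pools by any label, and deviations of same-numbered libraries correlated at 0.19, 0.052 and 0.021. With the replicate block on replicates 1 to 3, 6 of the 7 were called higher, with mt-nd2 (0.15), mt-nd4l (0.19) and mt-nd5 (0.15) added. The share of all tested genes called higher with the block is not given here. The same libraries without the block, which is the fit without normoxia replicate 4 and was added after seeing the data, gave 5, with mt-nd4l (0.19) and mt-nd5 (0.14) added. In that fit 23.7% of all tested genes were called higher. Both fits leave out normoxia replicate 4, the highest normoxia library in all 7 genes, which raises their fold changes by arithmetic. Of nuclear subunits, 6 were higher and 5 lower; the numbers were 0 and 11 with library size only, 3 higher with cyclic loess, and 3 lower with the block and without it. Single libraries left out gave 0 to 7 higher and 2 to 5 lower. The shares of all tested genes called lower with library size only, with the block or with single libraries left out are not given here. The counts of 6 muscle markers and 4 other mitochondrial mRNAs called higher fell to 2 and 1 with cyclic loess. In that fit 24.6% of all tested genes were called higher. Levels per kilobase were not run.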

Other observations

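The ndufa4b gene (ENSDARG00000056108) lies outside the list of nuclear complex I subunits and was singled out after its values were seen. Its product belongs to the NDUFA4 family, which was once assigned to complex I and is now counted with cytochrome c oxidase. Normoxia pools averaged 147 ± 3.80 CPM (SD, n = 4) and hypoxia pools 276 ± 9.23 CPM (SD, n = 3), without overlap. The log2 fold change of ndufa4b was 0.91 ± 0.04 (SE), with an edgeR adjusted p = 4.4e-07. Of all tested genes, 26.3% separated upward and 3.07% passed both thresholds upward. The listed ndufa4 gene had a log2 fold change of 0.09 (edgeR adjusted p = 0.14).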
